A study of Mus musculus with 19 samples.

Results

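The enzymes that write and erase methyl groups on DNA and histones were followed in mouse livers that lack Mat1a, the liver gene for the enzyme that makes S-adenosylmethionine (SAMe). A list of 49 such genes was used. A gene was kept if a probe that the platform annotation gives under the listed symbol had a detection p under 0.05 on 5 or more arrays, and the probe with the highest mean stood for it. Of the 49 genes, 27 met this rule, out of 10831 genes and unnamed probes tested in all. The rule uses names and detection and none of the comparisons, but the list was chosen with earlier results of these data known.

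SAMe is the methyl donor that DNA and histone methyltransferases share, and each transfer leaves S-adenosylhomocysteine, which inhibits many of them. Methyl groups on DNA are placed by DNA methyltransferases, and those on histone lysines by SET-domain enzymes and by Dot1l, often inside complexes such as Polycomb repressive complex PRC2 and the COMPASS complexes. Histone methyl groups are taken off by flavin-dependent demethylases (Kdm1a and Kdm1b) or by Jumonji enzymes, which use iron and 2-oxoglutarate. Mat1a is the form of methionine adenosyltransferase typical of adult liver. The arrays measured the RNA of these enzymes and not their activity or the marks themselves.

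Liver RNA was read on Illumina BeadChips, 1 array per animal ID, in mice aged 10 months that received placebo or SAMe over 8 weeks. The groups were MAT1A WT with placebo (WT placebo, n = 8), MAT1A KO with placebo (KO placebo, n = 6) and MAT1A KO with SAMe (KO SAMe, n = 5), and the labels hold no WT group given SAMe. The sources used here give no strain, no sex, no dose or route of SAMe, and do not say whether Mat1a was removed in the whole body. The Y-linked gene Eif2s3y was detected on all 19 arrays by 1 of its probes.

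Each array detected 25.5% to 31.8% of its 45281 probes, and precision is limited by how many arrays there are. Values are log2 intensities after background correction and quantile normalization, and a change is a difference of group means on that scale. Mat1a read 12.12 ± 0.14 (SD, n = 8) in WT placebo, 9.52 ± 0.31 (n = 6) in KO placebo and 9.64 ± 0.12 (n = 5) in KO SAMe. The KO livers were thus lower on every array, though the probe stayed detected, and where it lies relative to the deleted part is not known here. By median raw signal the arrays fell into a high-background and a low-background set that the labels do not mention. In 5 arrays (4 KO placebo and WT placebo replicate 1) the median was 93.6 to 100, and in the other 14 it was 75.1 to 85.8. The letter in the animal ID, which the labels do not explain, was K in all WT placebo mice, J or G in KO placebo, and I, K or G in KO SAMe. For most arrays the share of probes detected was also higher in KO placebo (28.0% to 31.8%) than in KO SAMe (26.1% to 28.2%) and WT placebo (25.5% to 28.5%). These technical features move with the groups, and counts of called genes are also given with them taken into account.

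Not every listed enzyme could be measured. Ezh1, Suv39h2 and Kdm5c had a probe but were detected on at most 2 arrays. Another 14 genes had no probe in the annotation used: Dnmt3a, Uhrf1, Tet1, Tet2, Tet3, Ezh2, Suv39h1, Setdb2, Setd7, Smyd3, Ash1l, Kdm3b, Kdm4a and Kdm4c. For 5 more the annotation uses a newer symbol, so the rule did not take them, and they are described separately as Kmt5a (Setd8), Nsd2 (Whsc1), Nsd3 (Whsc1l1), Kmt5b (Suv420h1) and Kmt5c (Suv420h2). Of the 27 kept genes, 12 were detected on all 19 arrays and 5 on fewer than 10.

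Many of the kept genes were dim. For 13 of them the mean log2 intensity over all arrays was under 5, with group means of 4.28 to 4.94 and raw signals of 74.8 to 124, against a lowest raw signal of 62.5 for any probe. The other 14 had a mean of 5 or above. The level of 5 was chosen after the data were seen. Near the background a change of RNA is compressed, so for the dim genes a log2 change understates the change.

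In KO placebo against WT placebo liver, Setd1b and Kdm2a were higher, and Suz12, Ash2l, Kdm1a, Kdm3a and Kdm7a were lower. That is 2 higher, 5 lower and 20 not called at a limma adjusted p under 0.05, where the adjustment runs over all 10831 tested. It makes 25.9% of the 27 genes, while 40.2% of everything tested was called (19.8% higher and 20.4% lower). The median change of the 27 genes was −0.02, with a median size of 0.10, against 0.01 and 0.22 over all tested. Among genes with a mean of 5 or above, 7 of 14 were called, beside 55.8% of all tested at that level. Among the dim ones 0 of 13 were called (limma adjusted p; 1 had a 95% interval that excluded 0), beside 17% of all tested. At an unadjusted p under 0.05, 10 of the 27 genes passed, as did 5056 of the 10831 tested. The split depends on how arrays are put on a common scale: scaling to the median of all probes, which puts the median change of everything tested at 0.18, made 8 higher and 1 lower, beside 46.1% of everything tested. The probes past the detection filter as the scale, with that median at −0.20, made 2 and 12, beside 59% of everything tested.

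**Figure D1:**
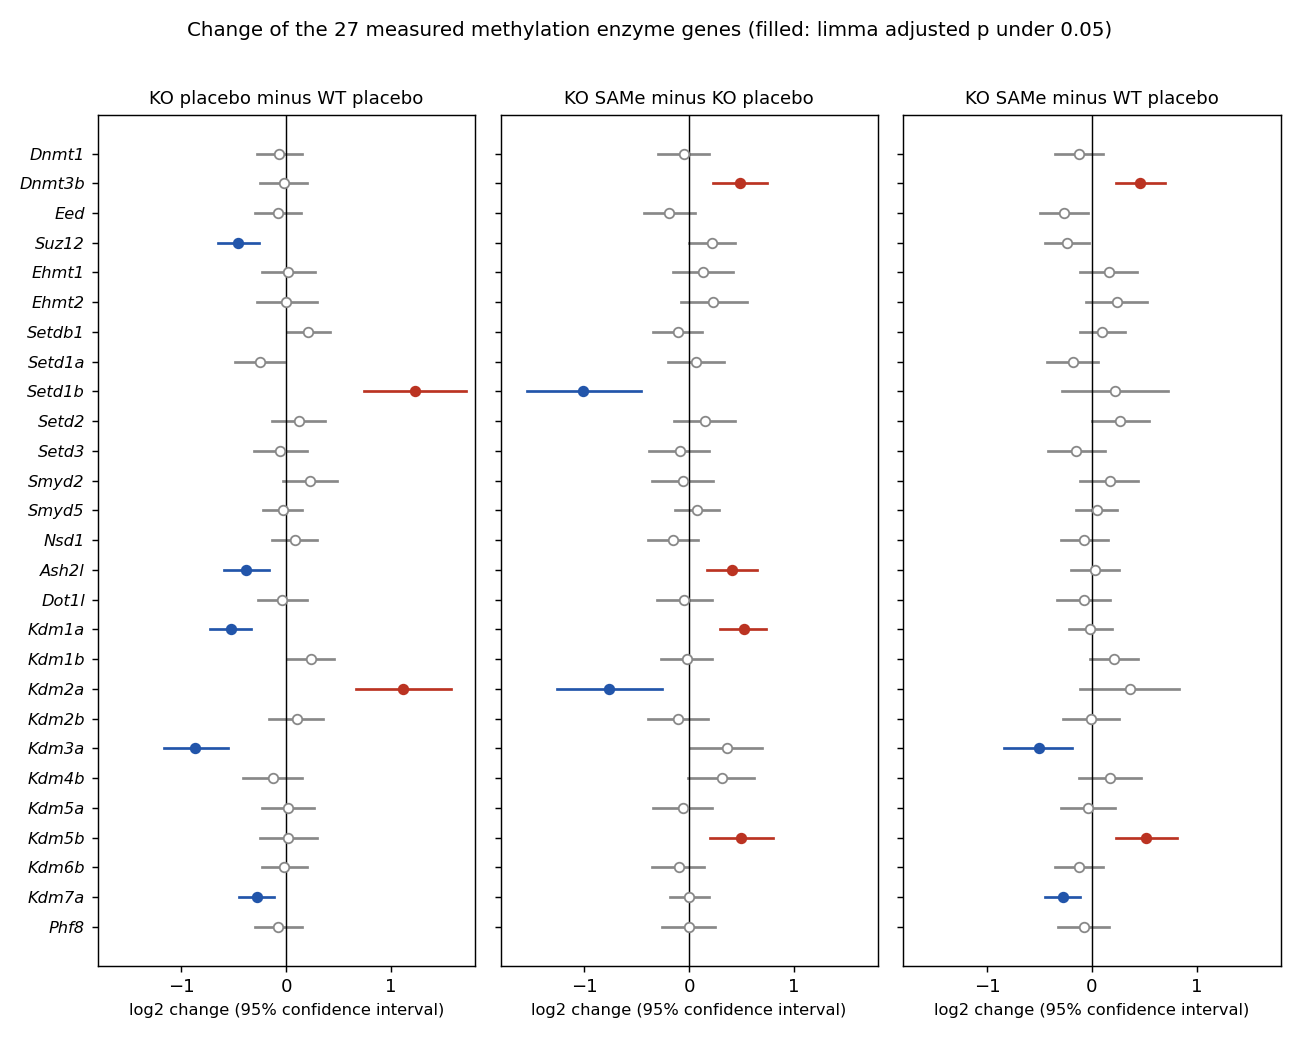
Log2 change of each of the 27 measured methylation enzyme genes (x axis) with its 95% confidence interval from limma, in KO placebo minus WT placebo, KO SAMe minus KO placebo and KO SAMe minus WT placebo. Filled points passed an adjusted p under 0.05: 7, 6 and 4 genes in the 3 panels. The first 2 panels share the KO placebo arrays, and the first and the third share the WT placebo arrays.

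The largest rises were in a methyltransferase and a demethylase. Setd1b, a catalytic subunit of a SET1 COMPASS complex that methylates histone H3 at active promoters, read from 4.41 to 6.12 with a median of 5.51 in WT placebo. In KO placebo it read from 6.07 to 7.02 with a median of 6.48, so the groups overlapped only at their edges. The change was 1.23 (SE 0.23, 2.34-fold, limma adjusted p = 2.3e-04). Kdm2a, a Jumonji demethylase that binds unmethylated CpG islands, read from 4.57 to 6.10 with a median of 5.39 in WT placebo. KO placebo arrays read from 6.04 to 6.92 with a median of 6.57, above 7 of 8 WT placebo arrays throughout. Its change was 1.12 (SE 0.22, 2.17-fold, limma adjusted p = 2.5e-04). Both genes varied widely in WT placebo, with an SD of 0.62 for Setd1b and 0.50 for Kdm2a, and WT placebo replicate 1, the high-background array, was the lowest in both. Without that replicate both calls held.

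Of the 27 genes, 3 were called lower with groups that did not overlap, as were 8.52% of everything tested, and both higher genes had groups that overlapped (8.1% of everything tested was called higher without overlap). Kdm1a (LSD1), the flavin-dependent demethylase of CoREST complexes, read from 6.08 to 6.54 (median 6.28) in WT placebo and from 5.50 to 5.93 (median 5.74) in KO placebo. The lowest WT placebo array thus lay above the highest KO placebo array, and the change was −0.53 (SE 0.09, 1.45-fold lower, limma adjusted p = 8.7e-05). Suz12, a core subunit that PRC2 needs for its activity, read from 7.49 to 7.98 (median 7.71) in WT placebo and from 7.16 to 7.42 (median 7.29) in KO placebo. Its change was −0.46 (SE 0.09, limma adjusted p = 5.2e-04). Kdm7a, a Jumonji demethylase with a PHD finger, read from 6.42 to 6.77 (median 6.65) in WT placebo. In KO placebo 5 arrays read 6.37 and the remaining array 6.29, a very narrow spread. The change was −0.28 (SE 0.08, limma adjusted p = 0.0060).

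The other 2 lower genes had groups that overlapped. Kdm3a, a Jumonji demethylase that removes repressive methyl groups and whose loss makes mice obese, read from 5.49 to 6.28 (median 6.02) in WT placebo. All but 1 KO placebo array lay at 5.17 or below, and the last, replicate 6, read 5.63, inside the WT placebo range. Kdm3a changed by −0.87 (SE 0.15, 1.83-fold lower, limma adjusted p = 6.7e-05). Its 2 other probes were also called lower in a fit over all probes, by −0.94 and −0.45. Ash2l, a subunit shared by the SET1 and MLL COMPASS complexes, read from 5.89 to 6.40 (median 6.27) in WT placebo and from 5.58 to 6.19 (median 5.83) in KO placebo. It changed by −0.38 (SE 0.11, limma adjusted p = 0.0064). A dimmer Ash2l probe, detected on 7 arrays, showed 0.03 and was not called. With arrays scaled to the median of all probes, Kdm1a (−0.13, limma adjusted p = 0.30) and Suz12 (−0.12, 0.41) were lower but not called, and Ash2l (0.03, 0.86) and Kdm7a (0.11, 0.43) changed sign. Kdm3a, Setd1b and Kdm2a stayed called in the same direction under both other scalings.

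The measured DNA methyltransferases and Eed, the other core PRC2 gene kept from the list, did not pass the test. Dnmt1, the maintenance DNA methyltransferase, changed by −0.07 (limma adjusted p = 0.67), and Dnmt3b, a de novo DNA methyltransferase, by −0.02 (limma adjusted p = 0.91). Eed, which in PRC2 binds the mark the complex makes, changed by −0.08 (limma adjusted p = 0.60). The 95% intervals of these 3 changes lay between −0.30 and 0.20. With the probes past the filter as the scale, all 3 were called lower, by −0.28 (limma adjusted p = 0.019), −0.33 (0.019) and −0.36 (0.0071) in the same order. All 3 were dim: Dnmt1 was detected on 6 of 8 WT placebo and 4 of 6 KO placebo arrays, Dnmt3b on 3 and 3, and Eed on 4 and 3. Setd1a, the paralog of Setd1b in the other SET1 complex, read from 4.98 to 5.55 (median 5.27) in WT placebo and from 4.78 to 5.31 (median 4.99) in KO placebo. Its change of −0.25 did not pass (limma adjusted p = 0.084). Kdm1b, the paralog of Kdm1a, read from 6.52 to 7.09 (median 6.69) and from 6.51 to 7.16 (median 7.02), a change of 0.24 (limma adjusted p = 0.084). In both paralog pairs the sign of the change was opposite to that of the called gene, but the difference within the pairs was not tested.

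**Figure D2:**
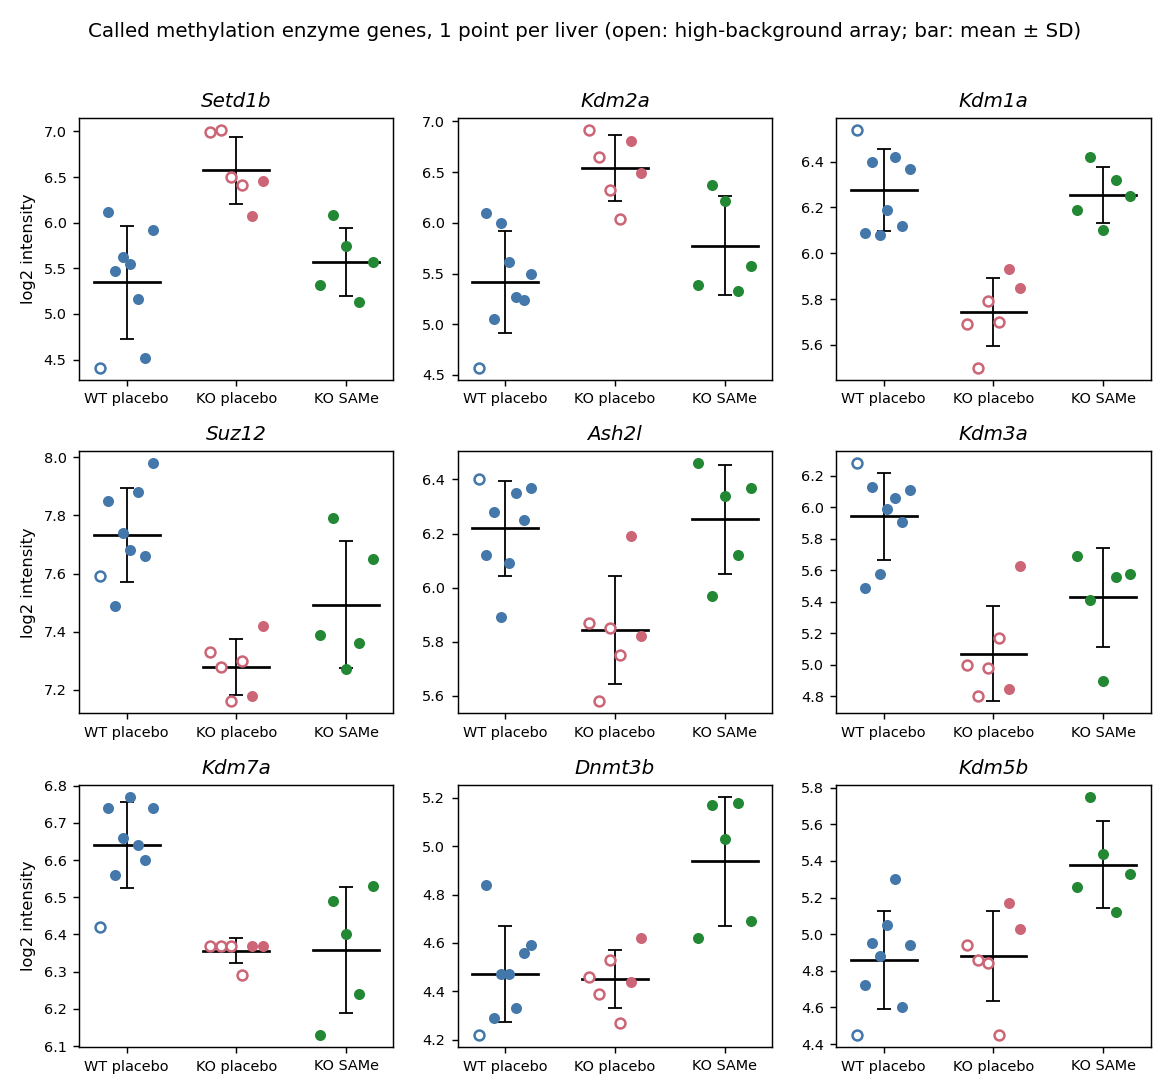
Log2 intensity (y axis, its own range in each panel) of the 9 genes called in at least 1 comparison, with 1 point per liver, open for high-background arrays, and the mean ± SD of each group. After quantile normalization Kdm1a, Suz12 and Kdm7a in KO placebo lie below every WT placebo liver (Kdm7a changes sign with arrays scaled to the median of all probes), and Dnmt3b in KO SAMe reaches 5.18 against at most 4.62 in KO placebo.

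Only Suz12 and Kdm2a stayed called among the 14 low-background arrays, which hold 2 KO placebo and 7 WT placebo livers. There Suz12 changed by −0.46 (limma adjusted p = 0.049) and Kdm2a by 1.11 (0.012), and 18.3% of everything tested was called. Setd1b changed by 0.78 (0.089), Kdm1a by −0.35 (0.075), Kdm3a by −0.65 (0.053), Kdm7a by −0.31 (0.094) and Ash2l by −0.19 (0.45) in those arrays. With the background set as a block in the fit, all but Kdm7a (−0.22, limma adjusted p = 0.061) stayed called, beside 36.2% of everything tested. With the share of probes detected as a covariate, only Suz12 (−0.42, limma adjusted p = 0.042) and Kdm3a (−0.69, 0.030) stayed called, beside 17.9% of everything tested. No ID letter was shared by the 2 groups, so letter and genotype cannot be told apart within a letter. A fit with the letter as a term can compare them only through KO SAMe livers, 1 of letter G and 2 of letter K. With so few livers it cannot decide whether the calls depend on the letter. With the letter as a term 0 of the 27 genes were called by limma adjusted p, as were only 54 of everything tested (0.499%). At an unadjusted p under 0.05, 1 of the 27 genes passed in that fit, as did 1472 of everything tested.

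The promoters of the 3 genes that were lower without overlap are shown because CG pairs are the bases that DNA methyltransferases modify. Each runs from 250 bases before to 50 after the RefSeq start (assembly GRCm38.p6), 5′ to 3′ on the gene's strand, with CG in capitals.
Kdm1a, chr4:136602674-136602973, minus strand: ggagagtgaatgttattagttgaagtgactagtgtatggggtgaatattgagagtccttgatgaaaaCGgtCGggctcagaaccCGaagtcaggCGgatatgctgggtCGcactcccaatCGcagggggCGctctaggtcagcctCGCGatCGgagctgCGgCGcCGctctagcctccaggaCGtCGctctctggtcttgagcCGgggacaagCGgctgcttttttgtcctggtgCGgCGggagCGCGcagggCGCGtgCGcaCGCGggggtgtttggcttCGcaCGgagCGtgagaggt
Suz12, chr11:79992856-79993155, plus strand: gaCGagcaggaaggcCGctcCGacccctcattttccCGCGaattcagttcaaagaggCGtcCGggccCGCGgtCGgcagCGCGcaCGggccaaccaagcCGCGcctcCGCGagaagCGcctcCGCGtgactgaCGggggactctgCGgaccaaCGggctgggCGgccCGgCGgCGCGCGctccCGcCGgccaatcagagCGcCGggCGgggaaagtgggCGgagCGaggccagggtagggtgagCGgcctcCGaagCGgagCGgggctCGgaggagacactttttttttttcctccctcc
Kdm7a, chr6:39206724-39207023, minus strand: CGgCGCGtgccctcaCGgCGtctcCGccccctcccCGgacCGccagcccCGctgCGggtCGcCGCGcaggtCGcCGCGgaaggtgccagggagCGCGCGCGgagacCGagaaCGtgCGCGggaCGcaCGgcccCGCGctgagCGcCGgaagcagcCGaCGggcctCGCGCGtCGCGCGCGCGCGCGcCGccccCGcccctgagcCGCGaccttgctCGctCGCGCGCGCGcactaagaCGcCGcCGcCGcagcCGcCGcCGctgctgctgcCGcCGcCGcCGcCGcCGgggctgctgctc

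These windows hold 29, 41 and 65 CG. Windows were found for 20 of the 27 genes (29 windows, since some genes have several starts). Their median was 30 CG, and 72.4% held 20 or more, against a median of 7 and 26.5% over all 32851 RefSeq windows. The 8 windows of called genes had a median of 29.5. They cover 6 of the 9 called genes, since no window was found for Setd1b, Kdm2a and Ash2l. On either strand, the letters GGGCGG were in 75.9% of the windows of the measured genes and 35.7% of all windows, and CCAAT in 44.8% and 37.4%. The shown windows of Suz12 and Kdm7a hold GGGCGG and that of Kdm1a does not. The shown windows of Kdm1a and Suz12 hold CCAAT. The reference of all windows includes genes that were not detected in these livers. The same figures over the tested genes only were not computed, so a trait of detected genes cannot be told apart from a trait of these enzymes. These matches describe the sequence, and DNA methylation was not measured in the arrays used here.

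With SAMe, 6 of the 27 genes differed between KO SAMe and KO placebo liver. Dnmt3b, Kdm1a, Kdm5b and Ash2l were higher, Setd1b and Kdm2a were lower, and 21 were not called. That is 22.2% of the genes, beside 18.5% of everything tested (10.8% higher and 7.69% lower). The median change of the 27 genes was 0.00 and the median size 0.13, against 0.00 and 0.17 over all tested. Scaling to the median of all probes split the calls into 1 higher and 5 lower, beside 30.9% of everything tested, and the probes past the filter as the scale into 6 and 2, beside 32.3%. Of the bright genes 5 of 14 were called, or 35.7%, beside 26.8% of all tested at that level, and of the dim ones 1 of 13, or 7.69%, beside 6%. This comparison uses the same KO placebo arrays as the comparison with WT placebo, so the 2 sets of changes are not independent and are given side by side only as values.

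Dnmt3b and Kdm1a were higher with no overlap between the groups, which was so for 4.81% of everything tested in that direction. Dnmt3b read 4.62, 5.17, 5.03, 5.18 and 4.69 in KO SAMe, and from 4.27 to 4.62 with a median of 4.45 in KO placebo. The lowest KO SAMe array and the highest KO placebo array thus agree to 2 decimals. The change was 0.49 (SE 0.12, limma adjusted p = 0.0082). Dnmt3b was near the detection limit, with a signal on 5 of 5 KO SAMe arrays and 3 of 6 KO placebo arrays. Kdm1a read 6.19, 6.42, 6.10, 6.32 and 6.25 in KO SAMe, all above the highest KO placebo array at 5.93. Its change was 0.52 (SE 0.10, 1.43-fold, limma adjusted p = 0.0020).

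The promoter of Dnmt3b, the only DNA methyltransferase of the list that was called, is shown in the same way and holds 30 CG.
Dnmt3b, chr2:153649199-153649498, plus strand: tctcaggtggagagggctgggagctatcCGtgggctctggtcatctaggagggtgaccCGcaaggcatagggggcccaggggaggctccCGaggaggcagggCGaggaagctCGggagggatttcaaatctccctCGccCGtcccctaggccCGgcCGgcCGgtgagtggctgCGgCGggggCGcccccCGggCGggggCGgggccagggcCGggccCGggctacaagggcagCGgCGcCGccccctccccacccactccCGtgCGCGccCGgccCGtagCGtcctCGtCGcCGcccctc

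Kdm5b, a Jumonji demethylase that removes the methyl mark of active promoters, read 5.26, 5.75, 5.44, 5.12 and 5.33 in KO SAMe and from 4.45 to 5.17 (median 4.90) in KO placebo. The groups overlapped by a single KO SAMe array, and the change was 0.50 (SE 0.15, limma adjusted p = 0.021). Kdm5b's 2 other probes, on 14 and 10 arrays detected, showed 0.01 and −0.05 and were not called. Ash2l read 6.46, 5.97, 6.34, 6.12 and 6.37 in KO SAMe against 5.58 to 6.19 in KO placebo, a change of 0.41 (SE 0.12, limma adjusted p = 0.019). Its dimmer probe showed −0.18 and was not called. With arrays scaled to the median of all probes, which puts the median of everything tested at −0.21, Dnmt3b stayed called higher, while Kdm1a (0.08, limma adjusted p = 0.60), Kdm5b (0.19, 0.30) and Ash2l (−0.03, 0.89) were not called.

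Setd1b read 5.32, 6.08, 5.74, 5.13 and 5.57 in KO SAMe, where only replicate 2 reached the lowest KO placebo array at 6.07. The change was −1.01 (SE 0.26, 2.01-fold lower, limma adjusted p = 0.011). Kdm2a read 5.39, 6.37, 6.22, 5.33 and 5.57, of which 3 lay below every KO placebo array. It changed by −0.76 (SE 0.24, 1.69-fold lower, limma adjusted p = 0.032). This last call was lost when any of 6 arrays was left out in turn, with changes between −0.91 and −0.65. The groups of both genes overlapped, whereas 3.33% of everything tested was called lower with no overlap.

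Of the genes lower in KO placebo than in WT placebo, Suz12, Kdm3a and Kdm7a were not called between KO SAMe and KO placebo. Suz12 read 7.39, 7.79, 7.27, 7.36 and 7.65 in KO SAMe, a change of 0.22 with a 95% interval of 0.00 to 0.44 (limma adjusted p = 0.17). Kdm3a read 5.69, 5.41, 4.90, 5.56 and 5.58, a change of 0.36 with an interval of 0.01 to 0.70 (limma adjusted p = 0.15), and another of its probes was called higher by 0.55 (limma adjusted p = 0.027), while the third showed 0.07 (0.79). Kdm7a read 6.13, 6.49, 6.40, 6.24 and 6.53, spread on both sides of the KO placebo arrays, and changed by 0.00 with an interval of −0.18 to 0.19 (limma adjusted p = 0.99), though by −0.44 (0.011) under scaling to the median of all probes. Dnmt1 changed by −0.05 (limma adjusted p = 0.82), Eed by −0.19 (0.29), Setd1a by 0.07 (0.77) and Kdm1b by −0.02 (0.92).

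Calls between KO SAMe and KO placebo were few among arrays of like background. With the 14 low-background arrays (2 KO placebo and 5 KO SAMe) 0 of the 27 genes were called, as were 0.702% of everything tested. There Dnmt3b changed by 0.41 (limma adjusted p = 0.25), Kdm1a by 0.37 (0.19), Kdm5b by 0.28 (0.47), Ash2l by 0.25 (0.49), Setd1b by −0.69 (0.30) and Kdm2a by −0.87 (0.16), each of the same sign as over all arrays. At an unadjusted p under 0.05, 4 of the 27 genes passed, as did 1757 of the 10831 tested. As a block, the background set left Kdm1a (0.51, limma adjusted p = 0.023), Setd1b (−1.10, 0.044) and Kdm2a (−1.08, 0.025) called, beside 9.26% of everything tested. With the share of probes detected as a covariate 0 of everything tested was called by limma (1286 at an unadjusted p under 0.05), and 2 of the 27 genes passed an unadjusted p under 0.05. The ID letter G was shared by 2 KO placebo livers and 1 KO SAMe liver, and among arrays of a shared letter 0 of the 27 genes were called (limma adjusted p; 2 at an unadjusted p under 0.05), as were only 2 of everything tested (0.0185%).

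**Figure D3:**
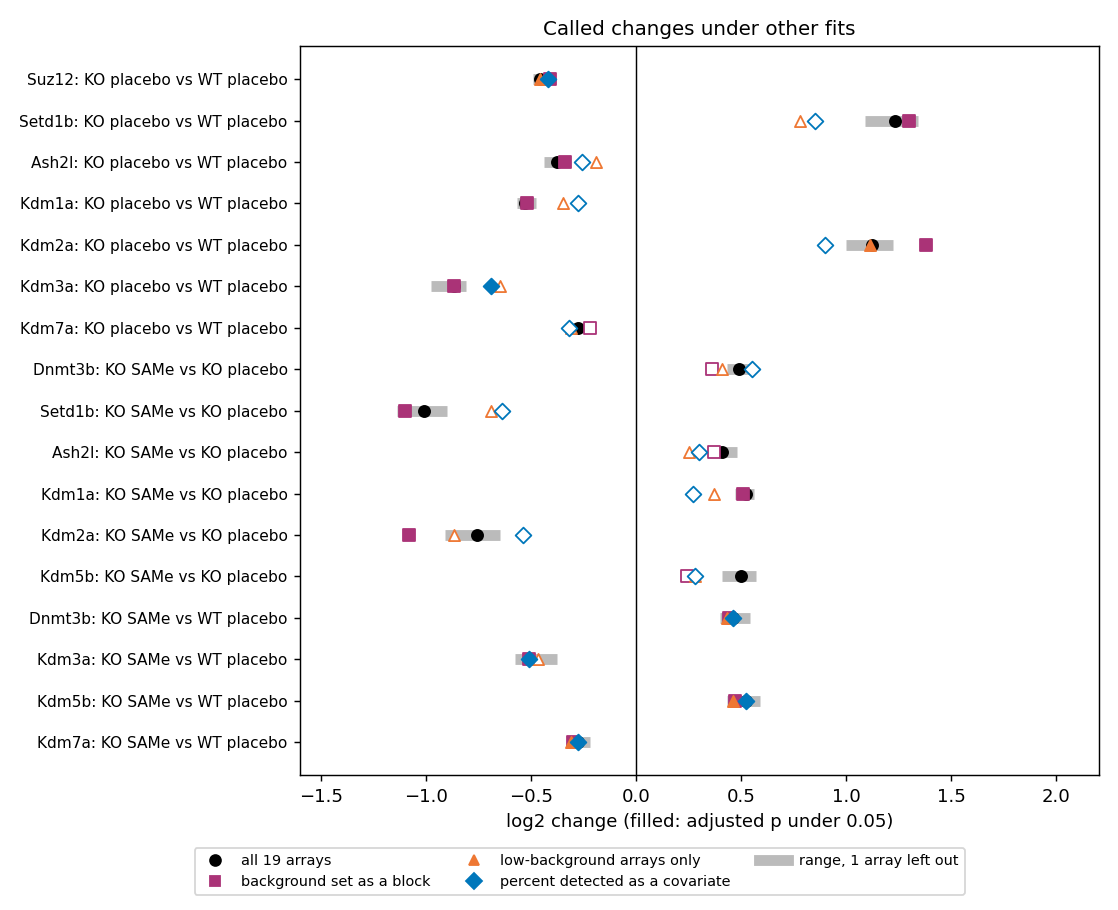
Log2 change (x axis) of each called gene and comparison over all 19 arrays, with the background set as a block, in low-background arrays only and with the percent of probes detected as a covariate. Filled marks passed an adjusted p under 0.05, and grey bars span the values with 1 array left out at a time. In KO SAMe against KO placebo 0 marks of the low-background arrays are filled, and in KO SAMe against WT placebo 3 of 4 are.

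Between KO SAMe and WT placebo liver, 4 of the 27 genes were called. Dnmt3b and Kdm5b were higher and Kdm3a and Kdm7a lower, which is 14.8% of the genes beside 17.6% of everything tested (9.49% higher and 8.09% lower). The median change was −0.01 and the median size 0.17, against 0.00 and 0.16 over all tested. The other scalings gave 2 higher and 1 lower (median of all probes, beside 13% of everything tested) and 2 and 3 (probes past the filter, beside 16.1%). The WT placebo arrays are those of the KO placebo comparison, and the KO SAMe arrays those of the comparison with KO placebo. In all 4 genes the groups overlapped, whereas 3.41% of everything tested was called higher and 2.54% lower with no overlap. Of the bright genes 3 of 14 were called, beside 25.1% of all tested at that level.

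Dnmt3b read from 4.22 to 4.84 (median 4.47) in WT placebo, so 3 of 5 KO SAMe arrays lay above every WT placebo array. The change was 0.46 (SE 0.11, limma adjusted p = 0.0071), with a signal on 3 of 8 WT placebo arrays. It passed under each of the 16 alternatives in which it could be fitted and with each of the 19 arrays left out, but its size ran from 0.14 in the authors' log2 values to 0.70 once the ID letter entered the fit. In the low-background arrays, where 14.9% of everything tested was called, it changed by 0.43 (limma adjusted p = 0.026), and between the 2 KO SAMe and 8 WT placebo livers of ID letter K by 0.70 (limma adjusted p = 0.013). Kdm5b read from 4.45 to 5.30 (median 4.91) in WT placebo, and 3 of 5 KO SAMe arrays lay above that range. Its change was 0.52 (SE 0.14, limma adjusted p = 0.012), and 0.46 in the low-background arrays (limma adjusted p = 0.020). The 2 other Kdm5b probes showed 0.22 and 0.02 and were not called. Within ID letter K its change of 0.57 did not pass (limma adjusted p = 0.11).

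Kdm3a was lower in KO SAMe than in WT placebo by 0.51 on the log2 scale (change −0.51, SE 0.16, limma adjusted p = 0.026). Its other probes, at −0.39 and −0.38, were not called, nor was the gene in the low-background arrays (−0.47, limma adjusted p = 0.067). Kdm7a was also lower (−0.28, SE 0.08, limma adjusted p = 0.023), a call lost with scaling to the median of all probes (−0.33, 0.065), with the arrays of these groups only (−0.28, 0.057) and with a trended robust eBayes (−0.28, 0.070). In the low-background arrays it changed by −0.31 (limma adjusted p = 0.026). Within ID letter K Kdm3a changed by −0.46 and Kdm7a by −0.28, neither called (limma adjusted p = 0.16 and 0.23). Kdm1a stood at 6.28 ± 0.18 (SD, n = 8) in WT placebo and 6.26 ± 0.12 (n = 5) in KO SAMe, a change of −0.02 with a 95% interval of −0.22 to 0.19. Ash2l changed by 0.03 (interval −0.20 to 0.26; −0.15 by its dimmer probe), Setd1b by 0.22 (−0.29 to 0.73), Kdm2a by 0.36 (−0.11 to 0.83) and Suz12 by −0.24 (−0.45 to −0.03), none of them called. Eed read 4.47, 4.27, 4.28, 4.21 and 4.15 in KO SAMe, detected on 0 of 5 arrays, against 4.16 to 4.95 (median 4.54) in WT placebo. Its change of −0.27 and that of Dnmt1, −0.12, were not called (limma adjusted p = 0.10 and 0.52). Setd1a read 4.72 to 5.32 and Kdm1b 6.86 to 7.14 in KO SAMe, with changes of −0.18 and 0.21 that were not called (limma adjusted p = 0.32 and 0.21).

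**Figure D4:**
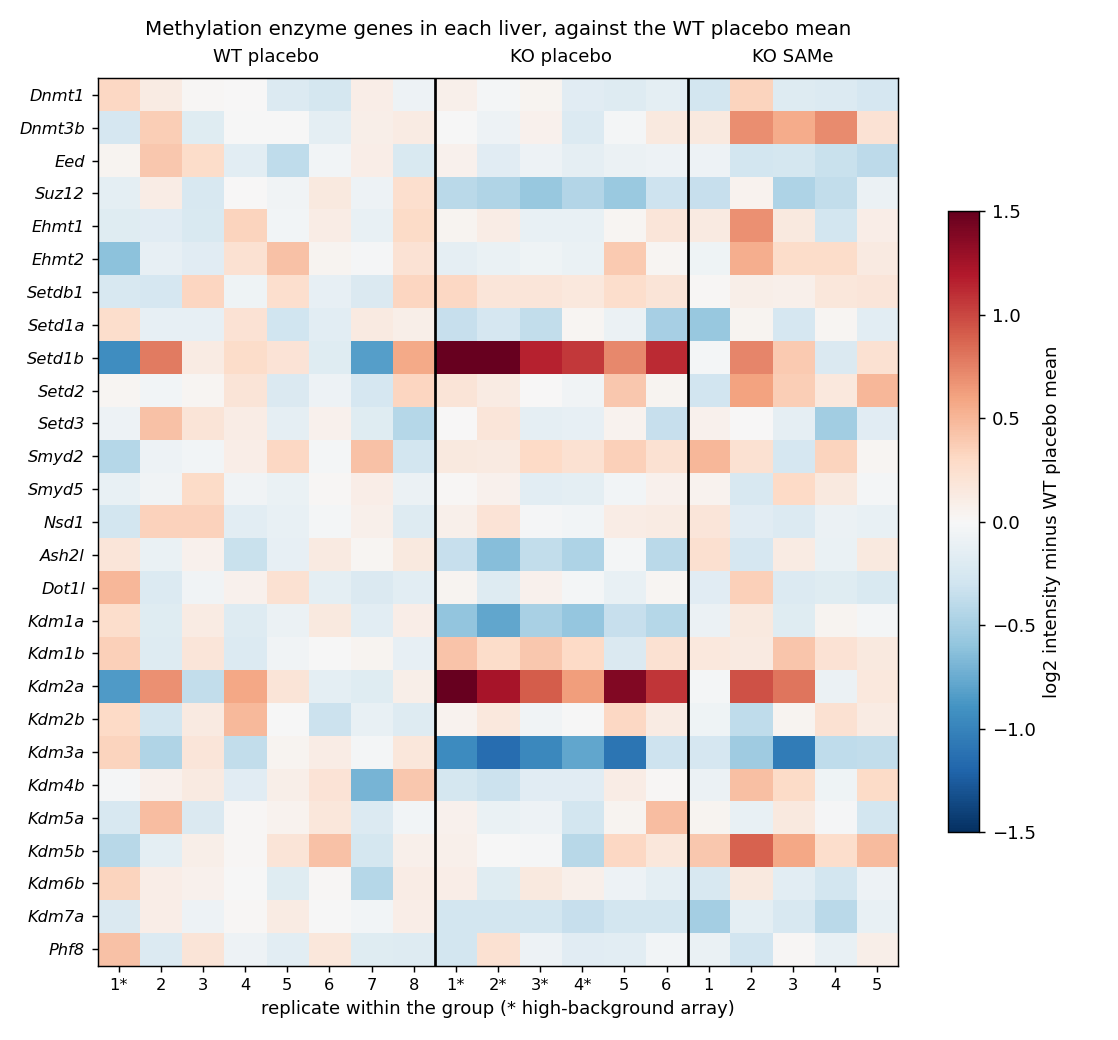
Log2 intensity of the 27 genes (rows) in each of the 19 livers (columns, by group and replicate), minus the gene's WT placebo mean, from −1.5 (blue) to 1.5 (red), with high-background arrays starred. Setd1b and Kdm2a are red and Kdm3a and Kdm1a blue in the KO placebo columns, and most rows stay pale.

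The remaining 18 genes were called in none of the 3 comparisons. They comprise Dnmt1 and Eed, the methyltransferases Ehmt1, Ehmt2 and Setdb1 (which act on repressed chromatin), Setd1a, Setd2 (which marks transcribed gene bodies), Nsd1, Dot1l, Setd3, Smyd2 and Smyd5, and the demethylases Kdm1b, Kdm2b, Kdm4b, Kdm5a, Kdm6b and Phf8. Their changes ran from −0.25 to 0.24 in KO placebo against WT placebo, from −0.19 to 0.31 in KO SAMe against KO placebo, and from −0.27 to 0.27 in KO SAMe against WT placebo. The 95% intervals reached from −0.49 to 0.49, from −0.43 to 0.62 and from −0.50 to 0.54 in the same order. Of these 18, 12 had a mean under 5, where a change may be compressed.

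Among the 5 genes known by newer symbols, Nsd3 and Kmt5b were called. Nsd3, a SET-domain methyltransferase, read from 5.97 to 6.70 (median 6.52) in WT placebo and from 6.73 to 7.58 (median 7.12) in KO placebo, with no overlap. It changed by 0.72 (SE 0.14, limma adjusted p = 2.7e-04), and by −0.49 (SE 0.16, limma adjusted p = 0.032) in KO SAMe against KO placebo. Its other probe, detected on 13 arrays, showed 0.00 and −0.07. Kmt5b, which methylates histone H4, changed by −0.28 in KO placebo against WT placebo (limma adjusted p = 0.025) and by −0.29 in KO SAMe against WT placebo (limma adjusted p = 0.054). Its 2 other probes, detected on 8 and 5 arrays, showed 0.04 and 0.15 in the former comparison and −0.05 and −0.04 in the latter, none called. In the low-background arrays Nsd3 changed by 0.53 (limma adjusted p = 0.043) and Kmt5b by −0.11 (0.69) in KO placebo against WT placebo, and Nsd3 by −0.37 (0.34) in KO SAMe against KO placebo. With arrays scaled to the median of all probes Kmt5b changed sign in KO placebo against WT placebo (0.12, limma adjusted p = 0.36). Kmt5a, Nsd2 and Kmt5c were not called in any of the 3 comparisons.

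Other genes of chromatin methylation were taken from a list of 83 symbols of further enzymes, complex subunits, readers and partners, of which 55 were measured. In KO placebo against WT placebo 13 of the 55 rose and 13 fell, beside 19.8% and 20.4% of everything tested, with a median change of 0.03. With arrays scaled to the median of all probes 26 rose and 4 fell, beside 46.1% of everything tested called in either direction. With scaling to the probes past the filter 9 rose and 20 fell, beside 59%. The 6 with the largest moderated t were Psip1 (−1.11, a chromatin reader that partners MLL complexes), Mbd1 (1.56, a reader of methylated CpG), Hr (0.97, a Jumonji-domain corepressor), Setd4 (−0.83), Atf7ip (0.56, a partner of Setdb1) and Setmar (−0.65). Their limma adjusted p ran from 1.1e-07 to 1.2e-04, and all 6 stayed called in the same direction under both other scalings. Hr was detected on 0 of 8 WT placebo, 6 of 6 KO placebo and 4 of 5 KO SAMe arrays. It thus passed the detection filter only through KO arrays. Around the called members Ash2l and Setd1b, the COMPASS subunits Kmt2a (0.87), Kmt2d (0.75), Men1 (0.49) and Rbbp5 (0.44) rose and Dpy30 (−0.64) fell, each at a limma adjusted p of 0.011 or lower, although Dpy30 (−0.33) was not called with scaling to the median of all probes. Wdr82 (0.25, limma adjusted p = 0.022) and Hcfc1 (0.31, 0.021) also rose. Each was detected on 2 of 8 WT placebo, 5 of 6 KO placebo and 0 of 5 KO SAMe arrays. Both thus passed the detection filter only through the KO placebo arrays, the group in which they were high. The subunits Kmt2b (0.24), Kmt2c (−0.07), Wdr5 (−0.13), Cxxc1 (0.28) and Ncoa6 (0.02) were not called. Which of these COMPASS subunits stayed called with scaling to the probes past the filter is not given here. Around Suz12, the PRC2 partners Rbbp4 (−0.75), Mtf2 (−0.45) and Aebp2 (−0.33) fell, while Jarid2 (0.02) and Rbbp7 (0.22) were not called. With scaling to the median of all probes Rbbp4 (−0.57) stayed called, and Mtf2 (−0.05) and Aebp2 (0.01) did not. The COMPASS and PRC2 partners were named after their values were seen.

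In KO SAMe against KO placebo 3 of the 55 rose and 3 fell, beside 10.8% and 7.69% of everything tested, with a median of −0.02. Scaling to the median of all probes gave 1 and 22, beside 30.9% of everything tested called in either direction. Scaling to the probes past the filter gave 8 and 2, beside 32.3%. The 6 with the largest moderated t were Mbd1 (−1.12), Setmar (0.60), Psip1 (0.48), Kmt2e (−0.35), Wdr82 (−0.33) and Prdm4 (0.43), with limma adjusted p from 0.0010 to 0.021. Kmt2e and Wdr82 were dim and passed the filter mostly through KO placebo. Each was detected on 5 of 6 KO placebo arrays, but on 1 and 0 of 5 KO SAMe and 1 and 2 of 8 WT placebo arrays. In KO SAMe against WT placebo 3 rose and 4 fell, beside 9.49% and 8.09% of everything tested, with a median of 0.01. The same scalings gave 0 and 5, and 1 and 5, beside 13% and 16.1% of everything tested. The largest moderated t were those of Psip1 (−0.64), Setd4 (−0.78), Rbbp4 (−0.70), Hr (0.59), Atf7ip (0.32) and Prdm4 (0.38), with limma adjusted p from 6.0e-04 to 0.032. Among the low-background arrays 7 of the 55 were called higher and 4 lower in KO placebo against WT placebo, 0 by limma in KO SAMe against KO placebo (7 at an unadjusted p under 0.05), and 3 and 4 in KO SAMe against WT placebo. Of everything tested 18.3%, 0.702% and 14.9% were called there in the same order. With the share of probes detected as a covariate the counts of the 55 were 7 and 5, 0 (7 at an unadjusted p under 0.05), and 4 and 5. Beside them 17.9%, 0% and 17.9% of everything tested were called.

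Whole liver holds many cell types, and fewer cells of a type cannot be told apart from less RNA per cell. Of 10 hepatocyte markers 9 were measured, and their log2 summed intensity was 14.88 to 15.17 in WT placebo, 14.99 to 15.22 in KO placebo and 15.02 to 15.09 in KO SAMe. The brightest markers lead this sum, and quantile normalization gives all arrays the same highest values. A stable sum thus says little about hepatocyte content. Single markers moved both ways. Hnf4a (0.98) and Fah (0.55) rose and the probes of Alb (−0.60) and Tdo2 (−0.70) fell in KO placebo against WT placebo. The Alb and Tdo2 probes averaged only 6.49 and 5.58 in WT placebo, against 13.37 for Apoa1 and 12.42 for Ttr. Whether they read the main transcript of their gene is not known here. Between KO SAMe and KO placebo 2 of the 9 rose and 1 fell, and 2 rose between KO SAMe and WT placebo. In KO placebo against WT placebo 4 of 8 measured stellate markers rose, and their summed level was 10.46 to 11.04 in WT placebo and 10.89 to 11.42 in KO placebo. Of 11 measured proliferation genes 4 fell in that comparison (summed level 8.36 to 8.77 against 8.13 to 8.49) and 2 rose in KO SAMe against KO placebo. Endothelial markers (9 measured) had 2 higher and 2 lower in KO placebo against WT placebo and 3 lower in KO SAMe against WT placebo, where their summed level was 9.88 to 10.69 against 10.5 to 11.12. Of the 9 macrophage markers 1 fell in KO placebo against WT placebo and another in KO SAMe against KO placebo, and of the 3 lymphocyte markers 1 rose and 1 fell in the former. Sox9, 1 of 2 measured cholangiocyte markers, rose in KO placebo against WT placebo. These marker counts are from all 19 arrays. Of everything tested 19.8% rose and 20.4% fell in KO placebo against WT placebo. The shares were 10.8% and 7.69% in KO SAMe against KO placebo, and 9.49% and 8.09% in KO SAMe against WT placebo. The part of these cell types in the changes of the methylation enzymes was not tested.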

How the data were processed

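The authors deposited a raw bead intensity and a detection p-value for every probe and array, without background correction or normalization. They also deposited log2 values for 17592 probes. Recomputed from the raw table, these were log2 raw signals, quantile normalized, of the probes that any array detected at p under 0.01. Label protocols name biotin labelling of amplified RNA.

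Background was corrected by normexp with limma 3.58.1 (R 4.3.3), inferred from the detection p-values with an offset of 16, followed by quantile normalization and log2, which hides any shift shared by most genes. The detection filter left 14295 probes, and 1 probe per gene left 8529 named genes and 2302 unnamed probes. Arrays of a group correlated at 0.9659 to 0.9904. They carry separate animal IDs, and replicate numbers follow accession order. A single limma fit (lmFit, eBayes, two-sided) over 19 arrays gave the 3 comparisons with Benjamini-Hochberg adjustment, and was tested on simulated data. Columns of values without a sample numbered 0.

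Named are the measured DNA methylation and core PRC2 genes, every gene called in at least 1 comparison, and the 12 genes with the largest F, with array values. Of the other chromatin genes the 6 with the largest moderated t per comparison are named. For the genes kept by the rule and called, all probes past the filter are given where they differ in sign or call. For other named genes not all probes are given. Members and lists were chosen with earlier results of these data known. Promoters are from RefSeq (GRCm38.p6). Alternatives changed background correction, scaling, filter, probe choice, arrays and covariates, and left out each array. The percent-detected covariate, and all alternatives for the other chromatin genes, were chosen after seeing the data.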

Additional observations from a re-analysis of the deposited data

Results flagged for a closer look

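In 6 of the 81 groups of arrays examined (27 genes in 3 groups) a single liver stood far from the others of its group, judged by its gap over the group's range. Chance alone gives about 1 in 20. KO SAMe replicate 2 read 4.96 for Dnmt1, where the others read 4.35 to 4.43, and 4.89 for Dot1l, where the others read 4.31 to 4.37. In KO placebo, replicate 5 read 6.55 for Ehmt2 against 6.03 to 6.19 in the others, and 6.51 for Kdm1b against 6.96 to 7.16. Kdm1b in KO SAMe replicate 3 read 7.14, with the others at 6.86 to 6.94. Kdm7a in KO placebo replicate 4 read 6.29, with the others all at 6.37, so this gap is small in size. Of these genes Kdm7a is the only one called in a comparison.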

How the results depend on the processing

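No paired analysis was possible because replicate numbers only name the arrays in accession order. The authors' log2 values, normexp with offset 50 with or without detection p-values, and detection p under 0.01 gave the counts reported (2 higher and 5 lower in KO placebo against WT placebo, 4 and 2 in KO SAMe against KO placebo, 2 and 2 in KO SAMe against WT placebo). Beside them 39.1% to 49.5%, 18.1% to 23% and 16.9% to 22.3% of everything tested were called in the same order. Scaling to the median of all probes put the median of all tested at 0.18, −0.21 and −0.02 (0.01, 0.00 and 0.00 as reported) and gave 8 higher and 1 lower, 1 and 5, and 2 and 1, with a median of −0.21 for the members in KO SAMe against KO placebo. It turned the sign of Ash2l (0.03, limma adjusted p = 0.86) and Kdm7a (0.11, 0.43) in KO placebo against WT placebo, and of Ash2l (−0.03, 0.89) and Kdm7a (−0.44, 0.011) in KO SAMe against KO placebo. Scaling to the probes past the filter put it at −0.20, 0.16 and −0.03 and gave 2 higher and 12 lower with a member median of −0.26, then 6 and 2, and 2 and 3. In the order higher and lower, KO placebo against WT placebo gave 1 and 1 in low-background arrays, 0 and 0 with the ID letter as a term, and 0 and 2 with percent detected as a covariate. Of everything tested 18.3%, 0.499% and 17.9% were called in these fits. Without a detection filter KO SAMe against KO placebo gave 3 and 0 (3.11% of everything tested), and with the mean of a gene's probes 2 and 2 (17.9%). It gave 1 and 2 with the background block (9.26%), and 0 and 0 in low-background arrays (0.702%) and with percent detected (0%). With the letter term or in shared letters this comparison rests on 1 KO SAMe liver of letter G. Without the filter (2.91%) and with the arrays of these groups only (15.2%) KO SAMe against WT placebo gave 2 and 1. The same counts came in low-background arrays (14.9%) and with a trended robust eBayes (16.6%). With the letter term (12.6%) and in shared letters (9.23%) it gave 1 and 0. The cause of these shifts was not tested, except that fewer arrays entered some fits and 40813 probes and genes were tested without the filter. Leaving out each array gave 2 to 3 higher and 5 to 6 lower, 3 to 5 and 1 to 2, and 1 to 3 and 1 to 3. Beside them 35.7% to 41%, 12.7% to 20.4% and 11.2% to 19.1% of everything tested were called with 1 array left out. Calls lost in this way, in KO SAMe against KO placebo, were Ash2l (without KO placebo replicate 2 or KO SAMe replicate 1), Kdm2a (without KO placebo replicate 1, 2 or 5, or KO SAMe replicate 1, 4 or 5) and Kdm5b (without KO SAMe replicate 2). In KO SAMe against WT placebo they were Kdm5b (without KO SAMe replicate 2), Kdm3a (without 2 or 3) and Kdm7a (without 1 or 4). Of 64 uncalled changes, 41 turned sign and 22 were called under at least 1 alternative.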

Other observations

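Within the groups, the called genes also varied with each other from liver to liver. The values of each array were taken as deviations from the group mean, and all 36 pairs of the 9 called genes were compared over 19 arrays with 100000 permutations within groups. For 4 pairs the Benjamini-Hochberg adjusted permutation p over the 36 pairs passed 0.05 by both measures. Setd1b and Kdm2a went together, with Pearson's r of 0.72 and Spearman's rho of 0.70 (adjusted permutation p = 0.025 for both). Their r was 0.66 without the 2 livers farthest from the median and 0.67 in the 14 low-background arrays. Kdm7a went with Setd1b (r = 0.65, rho = 0.71, adjusted permutation p = 0.038 and 0.025) and with Kdm2a (r = 0.70, rho = 0.73, adjusted permutation p = 0.047 and 0.025), although Kdm7a was lower and those genes were higher in KO placebo than in WT placebo. The r of these 2 pairs was 0.56 and 0.57 without the 2 farthest livers, and 0.58 and 0.60 in the low-background arrays. Kdm2a and Kdm3a went in opposite directions (r = −0.70, rho = −0.69, adjusted permutation p = 0.025 for both), with r = −0.60 without the 2 farthest livers and −0.76 in the low-background arrays. All values of an array come from the same hybridisation and normalization, and the part of these in the relations was not tested. Pairs of other tested genes were not compared, so how common such relations are among all genes is not known here.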
